A study of Mus musculus with 5 samples.

Results

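Secretory and vesicle trafficking genes encode the coats, small GTPases, tethers and fusion proteins that carry proteins and membrane between the endoplasmic reticulum (ER), the Golgi, endosomes, lysosomes and the cell surface. They were taken by name from the deposited table: every probe set with a single gene symbol beginning with Rab, Arf, Sec or Stx and a number, or with Sar1, Cop (but not Cops), Snx, Vps, Trappc, Vamp, Exoc, Gol or Tmed, or with Ap1, Ap2 or Ap3 and a letter. The rule found 68 of the 3373 probe sets, for 52 of the 2190 named genes, and each gene was read from whichever of its probe sets had the highest mean value. The cells were mesenchymal stem cells (MSC), stromal cells of mouse bone marrow, in primary culture in Mesencult medium. A total of 3 arrays held MSC alone and 2 held MSC that had shared transwells for 48 h with purified T cells (10 per MSC), which had been activated in vitro through CD3 and CD28. The transwell membrane separates the cell populations while soluble products pass. Each array is labelled as a separate biological repetition. Strain, age and whether the MSC alone were also kept in transwells are not given in the sources used here, and no arm with resting T cells was analysed here.

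Newly made secreted and membrane proteins enter the ER through the translocon and leave it in vesicles with a COPII coat, which the GTPase Sar1 recruits. COPI vesicles, recruited by an Arf GTPase, return material from the Golgi to the ER. Later steps sort cargo at the trans-Golgi network into endosomes, lysosomes or carriers for the cell surface, with Rab GTPases marking each membrane, tethers holding vesicles in place, and SNARE proteins, among them syntaxins (Stx) and VAMPs, fusing them. MSC secrete collagens and other large matrix proteins through the early part of this route.

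The values are deposited log2 probe set summaries, and every difference is co-culture minus MSC alone on the log2 scale, where 1 is 2-fold. Such values order arrays for 1 probe set and do not rank genes against each other. In all 3373 probe sets the co-culture arrays lay on 1 side of every array of MSC alone, with a gap of at least 0.34, so the table is treated as selected on this comparison. An adjusted p under 0.05 in limma was therefore reached by 100% of the 2190 named genes and by all 52 trafficking genes (largest 0.0173), and this call carries no information about them. Direction and size are described instead. Adjusted p-values given for single genes, and calls lost in other fits, come from the same selected table. They compare fits and do not show how reliable a gene's change is. The exact permutation test of 3 against 2 arrays cannot give a two-sided p under 0.2 for any single gene. Trafficking genes that are not in the table were not analysed here. The arrays measure bulk RNA, in which fewer cells of a type and less RNA per cell cannot be told apart.

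Of the 52 trafficking genes 21 rose (40.4%) and 31 fell (59.6%), against 48.3% and 51.7% of all named genes. Without Exoc3, whose probe sets moved in opposite directions, 20 of 51 rose. At least 2-fold changes were found in 9 that rose (17.3%, against 26.3% of all named genes) and 20 that fell (38.5%, against 35.0%). With each array centred on its median, which moves the median difference of all named genes up by 0.16, these counts became 13 and 13 (25% each, against 33.0% and 28.4% of all named genes). The median difference was -0.76 for the trafficking genes and -0.61 for all named genes. No named gene of the table differed by less than 0.47. A median here mainly shows which direction holds more genes, and is not a typical change. The compartments did not divide evenly. Of the 19 genes of the early secretory pathway, from ER translocation through COPII, ER to Golgi traffic and COPI with the Arf GTPases, 16 fell (84.2%) and 3 rose (15.8%). Of the other 33 genes 15 fell and 18 rose. Without Arf6, an Arf GTPase that acts outside the early pathway, 15 of 18 early genes fell. The pooling of these 4 compartments was chosen after their values were seen, so the contrast is a description of counts, with no test between compartments.

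Markers of cell types were read for the changes they showed. A marker at equal levels in both groups would not be among the selected probe sets, so these genes cannot show what the cells were. Of 11 MSC markers 6 were in the table, of which 4 fell and 2 rose; the receptor genes Pdgfra and Pdgfrb rose by 3.77 ± 0.70 and fell by 2.55 ± 0.44. The rise of Pdgfra was 13.7-fold, or 8.47-fold without MSC replicate 3, and the fall of Pdgfrb 5.87-fold, or 9.11-fold and 3.78-fold without co-culture replicates 1 and 2 in turn. Col1a1 and Col1a2, the chains of type I collagen, which is a main cargo of the early secretory pathway in stromal cells, fell by 3.94 ± 0.27 and by 2.02 ± 0.30. The other Col1a1 probe set fell by 5.13, and the 2 other Col1a2 probe sets fell by 5.26 and by 3.51; the printed Col1a2 probe set holds the highest value of the table, 14.59. Of 15 T cell and 5 endothelial markers 0 were in the table, and both cell types were not analysed here. Of 14 macrophage markers 2 were in the table. Mpeg1 was at 4.40, 4.82 and 4.71 in MSC alone and 9.44 and 8.81 in co-culture, and Ctss at 3.08, 3.65 and 3.36 and 6.62 and 5.89. The mean of both lay between 3.74 and 4.24 in MSC alone and between 7.35 and 8.03 in co-culture. These genes rose in the same arrays as the 21 trafficking genes that rose, Snx10 and Rab20 among them, and the part of macrophages in those rises was not tested.

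**Figure D1:**
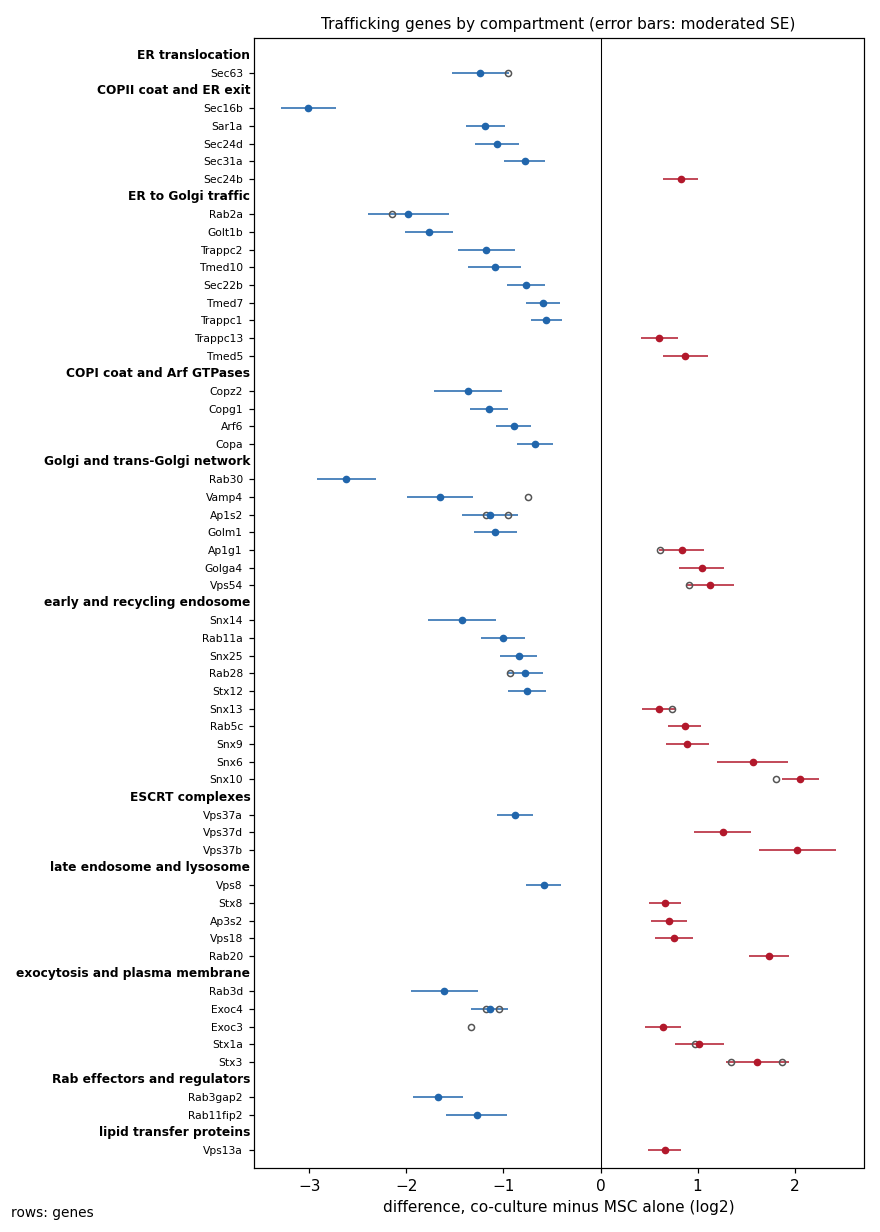
Difference between co-culture and MSC alone for each of the 52 trafficking genes, grouped by compartment, on a log2 axis. Filled points with bars are the probe set that stands for the gene with its moderated SE (blue lower, red higher in co-culture), open points are the gene's other probe sets, and in the top 4 compartments 16 of 19 filled points lie to the left of 0.

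COPII, the coat of vesicles that leave the ER, had 5 genes in the table, of which 4 fell and 1 rose. Sec16b, a scaffold of the ER exit sites where the coat assembles, was at 6.91, 6.66 and 7.36 in MSC replicates 1, 2 and 3 and at 4.23 and 3.71 in co-culture replicates 1 and 2. It fell by 3.01 ± 0.28 (moderated SE of the fit to 3 and 2 arrays), or 8.05-fold, the largest measured change of the 52 genes in either direction (adjusted p 0.00123 in limma). The co-culture values lie low in the range of the table, whose lowest value is 2.62, and without detection calls the size of this fall is uncertain. Sar1a, the GTPase that starts coat assembly, was at 10.39, 10.23 and 10.29 in MSC alone and at 9.31 and 8.92 in co-culture. Its fall of 1.19 ± 0.20 is 2.27-fold, and the arrays of MSC alone spanned less than the gap to co-culture. Sec24d, a coat subunit that binds cargo, fell 2.10-fold, from 10.75, 10.69 and 10.64 to 9.92 and 9.34. The outer coat subunit gene Sec31a fell by 0.78 ± 0.21, with 10.77, 10.39 and 10.26 in MSC alone against 9.70 and 9.68. The remaining gene, Sec24b, encodes another cargo-binding subunit of the Sec24 family and went the other way. It was at 7.41, 7.53 and 7.28 in MSC alone and at 8.33 and 8.14 in co-culture, a rise of 0.83 ± 0.18 (adjusted p 0.00673), so the 2 Sec24 genes of the table moved in opposite directions.

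Promoters were read for the trafficking genes and for the other pathway genes described below, rising and falling. They came from RefSeq's table for GRCm38.p6, which covers 250 bases before and 50 after each gene's start. A promoter was found for 43 of the 52 trafficking genes, and a gene with several starts counted once, as holding a motif if any of its promoters did. Motifs were searched on both strands, and no 2 matches overlapped in the genes described here. TGACGTGG, the unfolded protein response element that ER stress factors of the ATF6, XBP1 and Creb3l families are known to bind, was found in 2 of the 12 falling early secretory genes with a promoter (16.7%) and in 193 of 27025 genes in all (0.714%). The early pathway was pooled after its values were seen. Over all falling trafficking genes with a promoter the element was in 2 of 25 (8.0%), and in 0 of 18 rising ones. It was in 0 of the 5 rising and 0 of the 5 falling ER folding genes with a promoter. The 2 trafficking genes were Sec16b and Sec24d, and 1 of the 5 falling ER exit genes with a promoter, Kdelr3, held it too. Their windows are shown 5′ to 3′ because these letters lie close to the start in each, with the motif in capitals (in Kdelr3 on the other strand).
Sec24d, chr3:123267410-123267495, + strand: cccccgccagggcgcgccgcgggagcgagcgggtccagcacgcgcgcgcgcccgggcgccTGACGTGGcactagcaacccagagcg
Sec16b, chr1:157506692-157506795, + strand: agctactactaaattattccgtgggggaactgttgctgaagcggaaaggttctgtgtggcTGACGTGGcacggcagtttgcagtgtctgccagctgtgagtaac
Kdelr3, chr15:79516318-79516407, + strand: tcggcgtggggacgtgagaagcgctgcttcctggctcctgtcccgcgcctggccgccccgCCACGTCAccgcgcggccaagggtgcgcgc

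The matches begin 26 bases before the start of Sec24d, 44 before that of Sec16b and 30 before that of Kdelr3. A match is a description of letters in these windows, not of a factor's binding, and the numbers of genes are small.

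Upstream of the coat, Sec63, which works with the Sec61 translocon to bring proteins into the ER, was the only translocation gene of the name rule in the table. It fell by 1.24 ± 0.29, from 8.68, 8.69 and 8.80 to 7.95 and 7.02, and its other probe set fell by 0.95. The co-culture arrays differed from each other by more than the arrays of MSC alone: the fall was 1.71 with replicate 2 as the only co-culture array and 0.77 with replicate 1.

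In traffic from the ER to the Golgi 7 genes fell and 2 rose. Rab2a, a GTPase of membranes between the ER and the Golgi, was at 11.66, 11.53 and 12.54 in MSC alone and at 10.42 and 9.44 in co-culture, a fall of 1.98 ± 0.42 or 3.94-fold (adjusted p 0.00637). MSC replicate 3 stood above the other 2 arrays of MSC alone; without it the fall was 1.67. The second Rab2a probe set fell by 2.15. Golt1b, a small membrane protein of this route, fell 3.41-fold, from 7.77, 7.22 and 7.74 to 5.98 and 5.64 (adjusted p 0.00314). Its co-culture arrays lay more than 1 log2 unit below each array of MSC alone. Trappc2, a subunit of the TRAPP tether, fell by 1.18 ± 0.29, and Tmed10, a p24 cargo receptor that cycles between the ER and the Golgi, fell by 1.09 ± 0.27. Trappc2 was at 8.65, 8.64 and 9.12 in MSC alone and 8.01 and 7.24 in co-culture. Tmed10 was at 10.45, 10.32 and 10.14 and 9.60 and 8.83, and fell by 0.70 without co-culture replicate 2, the lower of the co-culture arrays. Sec22b, a SNARE that fuses vesicles between these membranes, was at 9.06, 9.13 and 9.45 in MSC alone and at 8.55 and 8.35 in co-culture, a fall of 0.77 ± 0.20. Tmed7 and Trappc1 showed the smallest falls of the early pathway, 0.59 and 0.56; with each array centred on its median neither passed the threshold (adjusted p 0.0547 and 0.0522). The call of Tmed7 was also lost without co-culture replicate 2 (adjusted p 0.0524), and that of Trappc1 without replicate 1 or 2 of MSC alone (adjusted p 0.0537 and 0.0518). The rising genes came from the same families as falling ones. Tmed5, another p24 protein, was at 8.21, 8.46 and 8.15 in MSC alone and 9.42 and 8.87 in co-culture and rose by 0.87 ± 0.23. Trappc13, another TRAPP subunit, rose by 0.61 ± 0.19, from 6.36, 6.38 and 6.18 to 6.77 and 7.06, and lost the call without co-culture replicate 2 (adjusted p 0.0768).

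All 4 genes of COPI and the Arf GTPases fell. Copz2, a small subunit of the COPI coat, was at 9.75, 9.50 and 10.60 in MSC alone and at 8.68 and 8.48 in co-culture, and fell by 1.37 ± 0.35. MSC replicate 3 was again the highest array, and without it the fall was 1.04; an unmoderated fit gave an adjusted p of 0.0529. Copg1, another coat subunit, fell 2.22-fold, from 8.50, 8.20 and 8.49 to 7.38 and 7.11 (adjusted p 0.00462). Copa, the largest subunit, fell by 0.67 ± 0.18, from 11.52, 11.44 and 11.31 to 10.62 and 10.88. Arf6 differs from the Arfs that recruit COPI in that it works at the plasma membrane and endosomes, and was grouped with them by name. It fell by 0.90 ± 0.18, from 8.93, 8.91 and 8.67 to 8.03 and 7.85. For Copg1, Copa and Arf6 the spread among arrays of a group was smaller than the difference between groups. The same was true of Copz2, and a table of groups that do not overlap favours it.

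**Figure D2:**
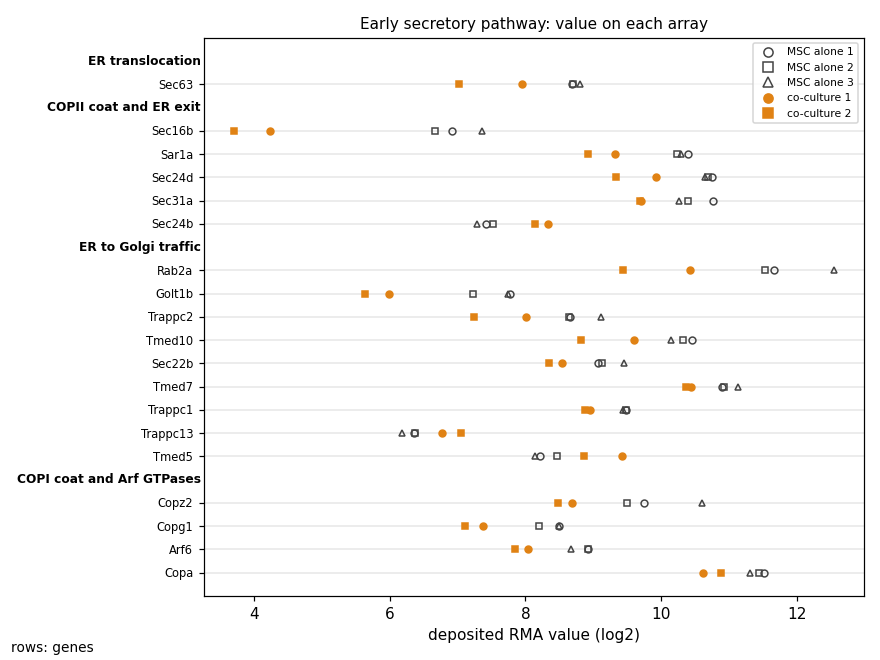
Deposited log2 value on each of the 5 arrays for the 19 genes of the early secretory pathway, open grey symbols for MSC alone and filled orange symbols for co-culture, with the symbol's shape giving the replicate. The orange symbols lie to the left of the grey ones for 16 genes and to the right for Sec24b, Trappc13 and Tmed5, and Sec16b shows the widest gap.

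Of the 7 genes of the Golgi and trans-Golgi network 4 fell and 3 rose. Rab30, a Rab GTPase of the Golgi, was at 7.71, 7.38 and 6.94 in MSC alone and at 5.03 and 4.43 in co-culture. It fell by 2.62 ± 0.30, or 6.14-fold (adjusted p 0.00204), the second largest measured change of the 52 genes. Its co-culture mean of 4.73 is low in the table, so the size of the fall is uncertain. Vamp4, a SNARE of the trans-Golgi network, had values within 0.04 of each other in MSC alone (8.89, 8.87 and 8.85) and well apart in co-culture (7.78 and 6.64). Its fall was 1.66 ± 0.34, or 1.09 without co-culture replicate 2, and its other probe set fell by 0.74. Golm1, a Golgi membrane protein, fell 2.12-fold, from 7.71, 7.57 and 7.51 to 6.78 and 6.25. AP-1, the clathrin adaptor at the trans-Golgi network, had 2 subunits in the table that moved apart. Ap1s2, a small subunit, fell by 1.14 ± 0.29, from 8.64, 8.65 and 7.92 to 7.07 and 7.46, and its 2 other probe sets fell by 1.18 and by 0.95. Ap1g1, a large subunit, rose by 0.84 ± 0.23, from 7.70, 7.89 and 7.66 to 8.29 and 8.88; its other probe set rose by 0.61, and without co-culture replicate 2 the call of the first was lost (adjusted p 0.0532). Both other rising genes belong to tethers that receive vesicles at the trans-Golgi network. Vps54, a subunit of the GARP tether, was at 8.93, 8.82 and 8.37 in MSC alone and at 10.03 and 9.65 in co-culture, and rose by 1.13 ± 0.24. Golga4, a golgin, rose by 1.04 ± 0.23, from 7.37, 7.48 and 6.90 to 8.21 and 8.38. MSC replicate 3 was the lowest of the arrays of MSC alone for all 7 of these Golgi genes, falling and rising alike.

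Early and recycling endosomes, with the sorting nexins, contributed 10 genes, of which 5 rose and 5 fell. Snx10, a sorting nexin of endosomes and lysosomes, was at 8.65, 8.55 and 8.71 in MSC alone and at 10.88 and 10.51 in co-culture. It rose by 2.06 ± 0.19, or 4.17-fold, the largest rise of the 52 genes (adjusted p 0.00123), and its other probe set rose by 1.80. Snx6, which bends membrane with the retromer that returns cargo from endosomes to the Golgi, rose by 1.57 ± 0.37, from 7.51, 7.64 and 7.38 to 8.46 and 9.69. The co-culture arrays were far apart, and the 2.97-fold rise was 4.55-fold with replicate 1 of co-culture left out and 1.93-fold with replicate 2 left out, the only trafficking gene whose fold moved by over 1.5 times when 1 array was left out. Snx9, a partner of dynamin in endocytosis, rose by 0.90 ± 0.22, from 10.06, 10.36 and 9.77 to 11.01 and 10.91. Rab5c, a GTPase of early endosome fusion, was at 8.62, 8.65 and 8.50 and 9.49 and 9.42 and rose by 0.87 ± 0.17, with little spread in either group. Snx13 rose least, by 0.60 ± 0.17. Its adjusted p was 0.0509 when MSC replicate 1 was left out and 0.0526 when co-culture replicate 2 was.

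The 5 genes of this compartment that fell included Rab11a, the GTPase of recycling endosomes. Rab11a was at 8.05, 7.64 and 7.62 in MSC alone and at 6.97 and 6.57 in co-culture, a 2.0-fold fall (adjusted p 0.00751). Rab11fip2, an effector that binds Rab11 and is grouped here with the Rab effectors, fell by 1.28 ± 0.31, from 8.28, 8.05 and 8.98 to 7.34 and 6.98. Stx12, a syntaxin of recycling endosomes, fell by 0.76 ± 0.19, from 7.37, 7.38 and 7.54 to 6.49 and 6.86. Snx14 and Snx25, which carry a regulator of G protein signalling domain as Snx13 does, fell by 1.43 ± 0.35 and by 0.84 ± 0.19, in the opposite direction to Snx13. Snx14 was at 8.39, 8.21 and 8.74 in MSC alone and 7.55 and 6.48 in co-culture, and had an adjusted p of 0.0506 without moderation of the spread. The fall of Snx14 was 0.89 without co-culture replicate 2. Rab28 fell by 0.77 ± 0.18, and its other probe set fell by 0.93.

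The core of the interferon-stimulated response element, GAAA repeated after 2 bases of any kind, was found in 1 of the 18 rising trafficking genes with a promoter (5.56%), Snx10, against 3.99% of all genes, and in none of 25 falling ones. In Snx10 it lies on the other strand, 26 bases before 1 of its starts, at the end of a run of T.
Snx10, chr6:51524174-51524259, + strand: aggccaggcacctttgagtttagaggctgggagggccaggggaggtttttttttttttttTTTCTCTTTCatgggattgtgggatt

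The cyclic AMP response element TGACGTCA (2.03% of all genes) and the lysosomal CLEAR element, GTCAC followed by GTGAC (0.370%), were found in none of the 43.

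ESCRT complexes sort ubiquitylated membrane proteins into vesicles inside endosomes, and Vps37 is the subunit of ESCRT-I that exists in several forms. All 3 ESCRT genes found by the name rule encode a form of it; 2 rose and 1 fell. Vps37b was at 7.10, 7.41 and 6.51 in MSC alone and at 8.51 and 9.55 in co-culture, a rise of 2.03 ± 0.40 or 4.08-fold (adjusted p 0.00571). Vps37d rose by 1.26 ± 0.30, from 6.95, 7.43 and 6.48 to 8.17 and 8.25. Vps37a fell by 0.88 ± 0.18, from 8.71, 8.37 and 8.57 to 7.67 and 7.67, with nearly equal co-culture arrays. The arrays of MSC alone stood in the same order for Vps37b and Vps37d, with replicate 2 highest and replicate 3 lowest.

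Of the 5 genes of late endosomes, lysosomes and related organelles 4 rose and 1 fell. Rab20, a Rab GTPase of endosomes and phagosomes, was at 5.04, 5.33 and 5.42 in MSC alone and at 6.86 and 7.15 in co-culture, a rise of 1.74 ± 0.21 or 3.33-fold (adjusted p 0.00213). Vps18, a core subunit of the HOPS and CORVET tethers, rose by 0.76 ± 0.20, from 6.38, 6.58 and 6.44 to 7.04 and 7.41. Vps8, a subunit of CORVET but not of HOPS, fell by 0.59 ± 0.18, from 8.01, 7.85 and 7.93 to 7.46 and 7.22. That call was lost without MSC replicate 1 (adjusted p 0.0625) or co-culture replicate 2 (adjusted p 0.0678). Stx8, a syntaxin of late endosomes, was at 9.06, 9.12 and 9.07 and 9.72 and 9.78 and rose by 0.67 ± 0.16, a small change with a smaller spread. Ap3s2, a small subunit of the AP-3 adaptor of lysosome-related organelles, rose by 0.71 ± 0.18, from 5.04, 4.77 and 4.79 to 5.65 and 5.51. The lipid transfer gene Vps13a rose by 0.66 ± 0.17 from 4.19, 4.20 and 4.35 to 4.84 and 4.98, values low in the table. The mean values of Ap3s2 and Vps13a in MSC alone lay under 5, so the size of their rises is uncertain.

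At the plasma membrane Stx3 and Stx1a rose, Rab3d and Exoc4 fell, and Exoc3, counted as rising by its brighter probe set, has no settled direction. Stx3, a syntaxin that fuses carriers with the cell surface, was at 8.26, 9.09 and 8.24 in MSC alone and at 9.91 and 10.38 in co-culture. It rose by 1.61 ± 0.32, or 3.06-fold (adjusted p 0.00597), and its 2 other probe sets rose by 1.35 and by 1.87. In all 3 probe sets MSC replicate 2 was the highest array of MSC alone. Stx1a, a syntaxin best known from neurons, rose by 1.02 ± 0.25, from 8.07, 8.37 and 7.64 to 9.05 and 9.05, and by 0.97 on its other probe set. Rab3d, a GTPase of regulated secretion, fell by 1.61 ± 0.35, from 6.88, 6.70 and 7.52 to 5.83 and 5.02. Rab3gap2, a subunit of the complex that inactivates Rab3, fell by 1.67 ± 0.26, from 6.52, 6.38 and 6.43 to 5.15 and 4.39 (adjusted p 0.00376), with a co-culture mean of 4.77 that leaves the size uncertain.

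The exocyst, a tether that docks secretory vesicles at the plasma membrane, was represented by Exoc3 and Exoc4. Exoc4 fell by 1.14 ± 0.19, from 8.21, 8.29 and 8.22 to 7.29 and 6.91, and its 2 other probe sets fell by 1.05 and by 1.18. For Exoc3 the probe sets disagreed. The probe set with the higher mean was at 8.53, 8.55 and 8.28 in MSC alone and at 8.99 and 9.20 in co-culture, a rise of 0.65 ± 0.19 that lost the call without co-culture replicate 2 (adjusted p 0.0604). Its other probe set was at 7.44, 7.12 and 6.76 against 6.21 and 5.34, a difference of -1.33. The mean of both gave -0.34 with an adjusted p of 0.165 in limma. Of the 13 trafficking genes with more than 1 probe set, Exoc3 was the only one whose probe sets moved in opposite directions (7.69%, against 6.80% of the 588 named genes with several).

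**Figure D3:**
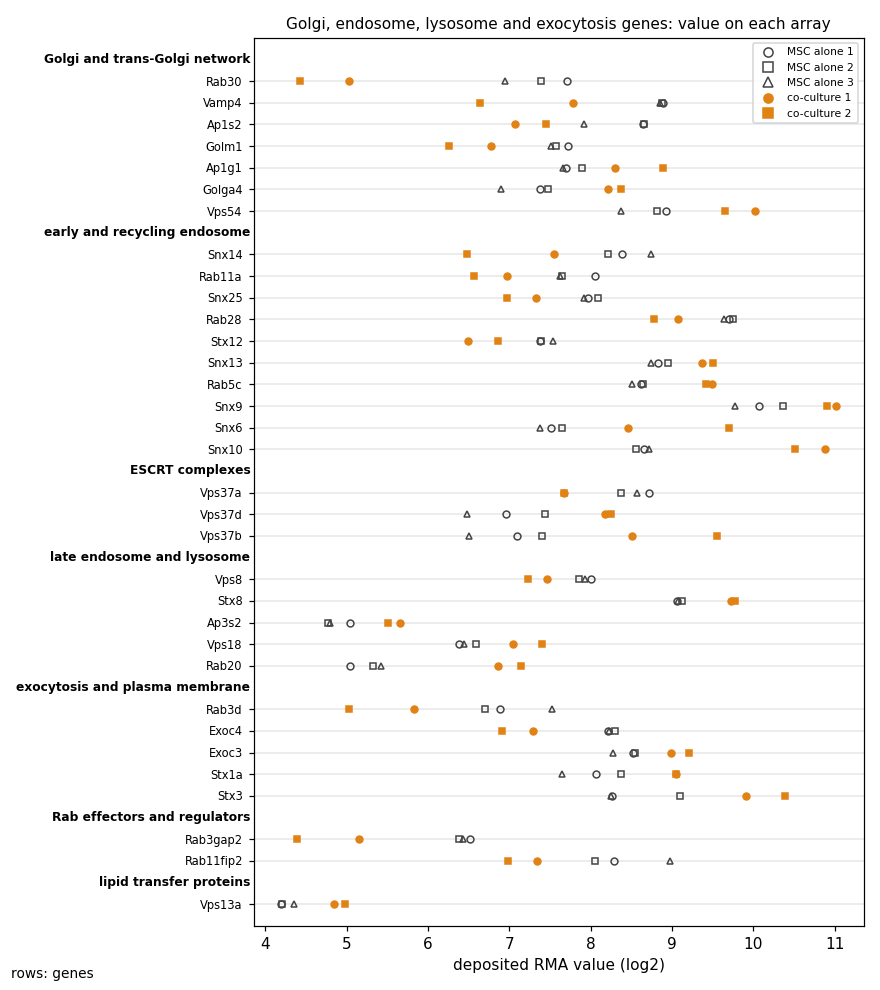
Deposited log2 value on each array for the 33 genes of the Golgi, endosomes, lysosomes, the plasma membrane, Rab effectors and lipid transfer, with symbols as for the early pathway. Orange symbols (co-culture) lie to the right of the grey ones (MSC alone) for 18 genes and to the left for 15, with Snx10 and Vps37b showing the largest rises and Rab30 the largest fall.

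Differences between arrays of 1 group followed a similar pattern in many of the genes. Co-culture replicate 2 lay farther from MSC alone than replicate 1 in 41 of the 52 genes (78.8%), and in 73.7% of all named genes. Without replicate 2 the median difference of the trafficking genes was -0.67 in place of -0.76. That shift was not compared with the shift of all named genes. MSC replicate 3 was the lowest array of MSC alone in 28 of the 52 genes (53.8%, against 40.6% of all named genes). It was the highest in 14 (26.9%, against 37.4%). In the 19 early secretory genes it was the lowest in 47.4% and the highest in 36.8%. The 50 other pathway genes described below went the other way, with replicate 3 the lowest in 28.0% and the highest in 52.0%. The part of array quality in these patterns was not tested. The number of tests behind the selected table is unknown. With p-values adjusted for 15 times the number of tests, 5 trafficking genes kept an adjusted p under 0.05 in limma, against 11.0% of all named genes. They were Sec16b, Golt1b and Rab30 among those that fell (5.53% of all named genes) and Snx10 and Rab20 among those that rose (5.43%).

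Further genes of the pathway, whose names lie outside the rule, were listed by function, and 50 of the 275 listed genes were in the table. Of these 21 rose (42.0%) and 29 fell (58.0%), against 48.3% and 51.7% of all named genes. In the lists for the ER membrane and ER exit all measured genes fell, which were 2 of 20 listed genes of translocation and signal recognition and 8 of 30 listed for ER exit and cargo receptors. Tram2, a translocon protein linked to collagen synthesis, fell by 2.16 ± 0.37, from 8.17, 8.16 and 8.33 to 6.70 and 5.42; without co-culture replicate 1 the 4.48-fold fall was 6.99-fold and without replicate 2 it was 2.87-fold. Tram1 fell by 1.08 ± 0.25. The ER exit list also counts Creb3l1 and Creb3l2, which are transcription factors held in the ER membrane, not cargo receptors. Placing them there, and not with the unfolded protein response genes, was a choice. They are known to drive genes of secretion in bone and cartilage cells. Creb3l1 was at 8.65, 8.34 and 9.14 in MSC alone and at 6.64 and 5.68 in co-culture, a fall of 2.55 ± 0.36 or 5.85-fold (adjusted p 0.00329). Creb3l2 fell by 1.91 ± 0.41, from 8.71, 8.17 and 8.42 to 7.21 and 5.85, its other probe set fell by 0.81, and without co-culture replicates 1 and 2 in turn its fall was 2.59 and 1.23. Yipf5 fell by 1.75 ± 0.29, with a co-culture mean of 4.43 that leaves the size uncertain. Kdelr3 and Kdelr2, receptors that return escaped ER proteins from the Golgi, fell by 1.53 ± 0.38 and by 0.63 ± 0.18.

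ER folding factors and the unfolded protein response genes moved in both directions. Of 42 listed genes 12 were in the table, of which 7 rose and 5 fell. Ern1, which encodes the ER stress sensor IRE1 alpha, was at 5.55, 6.56 and 5.04 in MSC alone and at 8.95 and 9.88 in co-culture, a rise of 3.70 ± 0.50 or 13.0-fold (adjusted p 0.00295). The other 6 that rose were Sdf2l1, Dnajc3, Hyou1, Ero1b, Creld2 and Derl1, by 0.93 (Derl1) to 1.56 (Sdf2l1). They encode chaperone partners, an oxidase for disulfide bonds and a factor that exports misfolded proteins. The mean of Ero1b in MSC alone was 4.52, so the size of its rise is uncertain. The 5 that fell were Fkbp14, Fkbp7, Dnajc10, Serpinh1 and P4hb. Serpinh1, the collagen chaperone HSP47, fell by 1.33 ± 0.27, from 12.49, 12.40 and 13.15 to 11.46 and 11.25. Fkbp14, a prolyl isomerase that acts on collagens, fell by 2.57 ± 0.53, and Fkbp7, of the same family, fell by 2.05 ± 0.42; MSC replicate 3 was the highest array for both, and without it the falls were 2.09 and 1.68. P4hb, a disulfide isomerase that is also a subunit of the collagen prolyl hydroxylase, fell by 0.71 ± 0.18.

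The ER stress response element, CCAAT and CCACG with 9 bases of any kind between them, was found in none of the 43 trafficking genes with a promoter and in 37 of 27025 genes in all (0.137%). In the ER folding list 3 of the 5 rising genes with a promoter held it (Dnajc3, Creld2 and Ero1b) and none of the 5 falling ones with a promoter. Those windows are given for contrast with those of the ER exit genes, with the element in capitals (on the other strand in Creld2 and Ero1b).
Dnajc3, chr14:118937767-118937905, + strand: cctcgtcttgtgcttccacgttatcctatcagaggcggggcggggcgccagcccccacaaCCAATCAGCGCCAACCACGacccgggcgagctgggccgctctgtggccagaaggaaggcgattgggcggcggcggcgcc
Creld2, chr15:88819460-88819598, + strand: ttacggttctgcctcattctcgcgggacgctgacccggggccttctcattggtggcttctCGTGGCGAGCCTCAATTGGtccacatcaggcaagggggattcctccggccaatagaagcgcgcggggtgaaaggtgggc
Ero1b, chr13:12565633-12565760, + strand: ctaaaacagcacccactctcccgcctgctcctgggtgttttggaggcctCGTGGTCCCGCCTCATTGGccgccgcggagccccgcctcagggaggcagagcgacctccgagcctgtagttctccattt

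Among SNAREs and fusion factors 5 of 8 measured genes rose and 3 fell, out of 38 listed. Bet1, a SNARE of ER to Golgi traffic, fell by 1.95 ± 0.44, from 8.23, 8.15 and 8.68 to 7.14 and 5.66, with a fold of 6.48 without co-culture replicate 1 and 2.31 without replicate 2 in place of 3.87. Stxbp4 was 3.76-fold lower, or 6.62-fold and 2.13-fold lower without those replicates in turn, and Sytl2 3.10-fold lower. Gosr1 and Ykt6, Golgi SNAREs, rose by 0.97 ± 0.22 and by 0.69 ± 0.17. Of 9 measured genes of clathrin, endosome and lysosome sorting 6 fell and 3 rose. Ehd2, Cav1 and Cav2, all proteins of caveolae at the cell surface, fell by 1.95 ± 0.20, by 1.69 ± 0.29 and, for Cav2, 2.83-fold. Of its ESCRT genes, Stam2, a subunit of ESCRT-0, rose by 1.25 ± 0.21, and Chmp3, a subunit of ESCRT-III, fell by 1.24 ± 0.31, from 7.76, 7.65 and 7.77 to 6.99 and 5.99. Among Arf regulators and Golgi tethers 2 of 5 rose and 3 fell; Cog6 fell by 1.39, Arfgap1, which switches off Arf1 on COPI vesicles, fell by 1.33, and Tgoln1, a trans-Golgi membrane protein, rose by 1.18. Of 6 other Rab regulators 4 rose and 2 fell, with the largest changes in Rabgap1l, which fell by 1.84, Tbc1d15, which rose by 1.16, and Rabggtb, a subunit of the enzyme that attaches lipid to Rabs, which rose by 1.12.

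**Figure D4:**
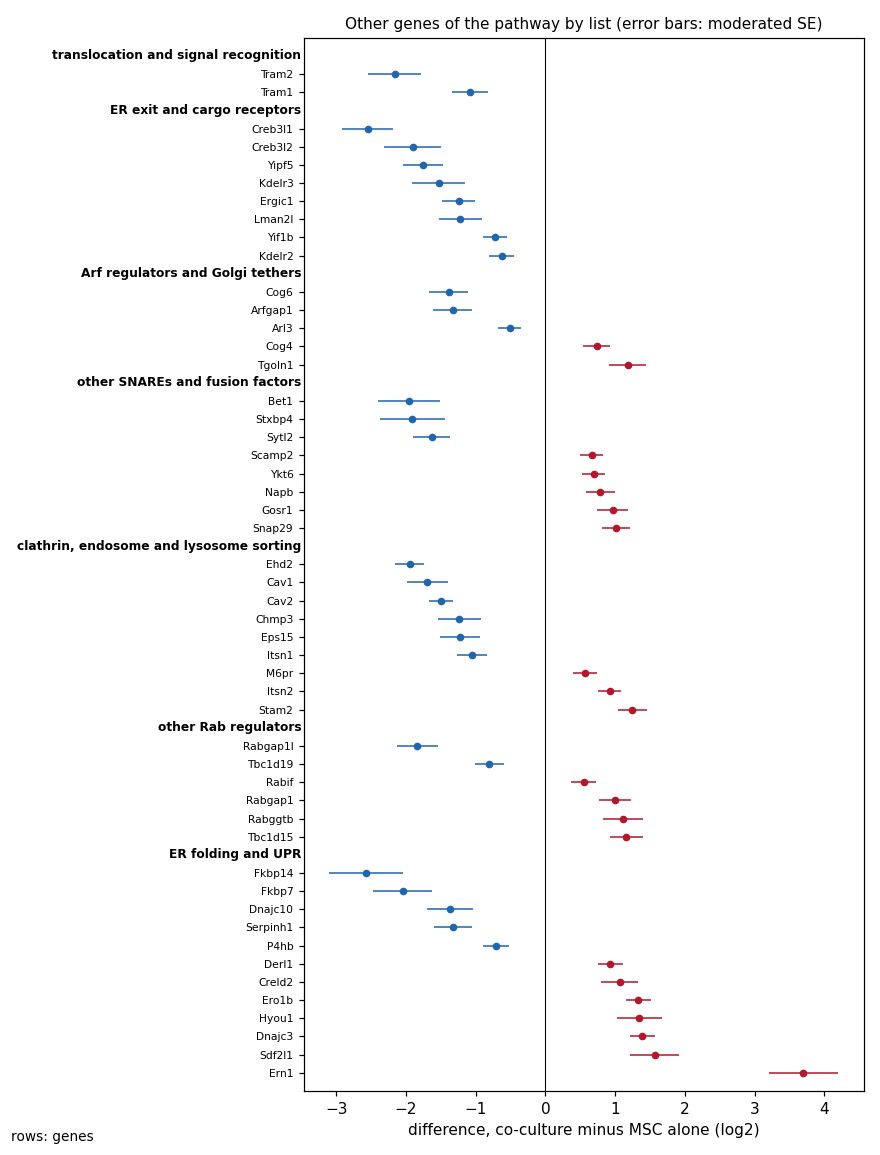
Difference between co-culture and MSC alone for the 50 listed pathway genes outside the name rule, by list, on a log2 axis with moderated SE bars (blue lower, red higher in co-culture). All 10 genes of the 2 lists at the ER membrane, Creb3l1 and Creb3l2 among them, lie left of 0. The ER folding list holds both directions, with Ern1 farthest to the right at 3.70.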

How the data were processed

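RNA of 5 mouse samples was measured on microarrays, with MSC by themselves on 3 and MSC from co-culture on 2. The authors deposited log2 values. Per the submitters' processing notes these came from RMA, which background-corrects, quantile-normalizes and summarizes probes and gives no detection calls; all 3373 probe sets of the table were used, and other probe sets were not analysed here. Gene names came from GEO's platform annotation (3013 probe sets with 1 symbol, 69 with several, which were left unnamed, and 291 with none); 3010 matched RefSeq GRCm38.p6, with 0 symbols changed. The 5 arrays were fitted without further normalization in limma 3.58.1 (R 4.3.3; lmFit and eBayes, two-sided, no covariate), with Benjamini-Hochberg adjustment over all probe sets at a threshold of 0.05. SEs are moderated. The number of arrays limits the precision. Because the table holds only probe sets whose groups do not overlap, SEs may be too small and differences too large.

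Every gene of the name rule is counted, and values are given for the genes of each compartment. The genes, compartments, lists, markers and motifs were chosen with earlier results of these data known; the pooling of 4 compartments as the early secretory pathway was chosen after their values were seen. Alternatives were median centring, other probe set choices, no moderation, more tests, a filter on dim probe sets, a replicate block and leaving out each array; counts without Arf6 or Exoc3 were added after seeing the data. Promoters and their sequences are from RefSeq; 1 further motif is not reported here.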

Additional observations from a re-analysis of the deposited data

How the results depend on the processing

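The direction of each trafficking gene held under every alternative that could be run for it, except that of Exoc3, which was -1.33 with the lowest-mean probe set and -0.34 with the mean of its probe sets. Most alternatives could not reverse a direction. The groups do not overlap, so leaving out an array cannot, and more tests, no moderation or the dim filter leave differences unchanged. Centring moved differences by 0.16, less than the smallest size among the 52 genes, 0.56. Only the choice of probe set could reverse one. Centring each array on its median gave 13 genes at least 2-fold lower and a median difference of -0.60, and the median of early and recycling endosome genes turned from -0.08 to 0.084. That median lies between genes that rose and genes that fell, and no gene of the compartment had a difference near it. Leaving out 1 array in turn gave that median values from -0.0905 to 0.047. Without probe sets whose names end in _s_at, _x_at or _a_at it was -0.76. The median of ER to Golgi traffic was then -1.09 in place of -0.77. The median for exocytosis was -1.18 with the lowest-mean probe sets and -0.34 with the mean of probe sets. With 15 times as many tests, 2 genes were called higher and 3 lower (2 of the 3 early secretory, where 0 were called higher), of which 2 and 3 by at least 2-fold. Leaving out 1 array gave 17 to 21 genes called higher, 29 to 31 lower, 6 to 10 at least 2-fold higher and 11 to 20 at least 2-fold lower. For early secretory genes these fits gave 15 to 16 called lower and 2 to 3 higher. The median difference of all 52 genes lay between -0.76 and -0.67 in these fits. Replicate numbers are shared by the groups, and deviations from the group means correlated at 0.22 and 0.32 for numbers 1 and 2. These are too few to show pairing. With a replicate block 21 genes rose and 31 fell, as in the main fit, with a median difference of -0.72. In that fit 6 were at least 2-fold higher, a count not set beside that of all named genes. MSC replicate 3 has no co-culture array of its number. The block therefore gives the same differences as leaving that array out and is not a separate check of them. Left out as dim or by probe set type, 5 and 8 genes had no value. The cause of these changes was not tested. Low values carry the least certain sizes, since signal over background is unknown here.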
